A study of Mus musculus with 6 samples.

Results

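The 10 genes described here encode the Notch receptors Notch1, Notch2, Notch3 and Notch4, the ligands Jag1, Jag2, Dll1 and Dll4, and the target genes Hes1 and Hey1. They were chosen by name, and each has a row among the 23420 genes of the deposited table, so 10 of 10 were found. Poly(A) RNA was sequenced from the humerus of C57BL/6 mice on postnatal day 6, in 3 libraries labelled Tfam cKO and 3 labelled Control. Tfam encodes a protein that packages mitochondrial DNA and takes part in its transcription. The series title places the deletion of Tfam in limb mesenchyme that expresses Prx1-Cre, so blood cells, endothelium and osteoclasts of the bone lie outside the driver's lineage. The labels describe the controls only as Control, and the sources used here do not state whether they carry Cre or floxed alleles. Marrow had been flushed out with PBS in both groups, and nothing in the labels ties a library to its own animal. The p-values therefore measure only the spread between these 6 libraries, which may be technical.

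Notch receptors are membrane proteins that bind Jagged and Delta-like ligands on a neighbouring cell. Binding exposes the receptor to cleavage by ADAM proteases and then by gamma-secretase, and the released intracellular part joins the DNA-binding protein Rbpj to switch on genes such as Hes1 and Hey1, which encode transcriptional repressors. In bone, Notch signals are known to hold back the maturation of osteoblast precursors and to act in endothelium, where Notch1, Notch4 and Dll4 are prominent, and in the mural cells of vessels, where Notch3 is.

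Each library held 1441152 to 1714770 reads assigned to genes. Levels are normalized read counts, which are reads divided by the authors' size factor for the library. Tfam itself had 28.1, 46.1 and 47.6 normalized reads in the Tfam cKO libraries, against 61.3, 72.1 and 78.6 in the Control libraries, with no overlap. On the log2 scale Tfam fell by 0.81 (SE 0.21) at a limma adjusted p of 0.0246, with an exact two-sided permutation p of 0.1, the smallest that 3 libraries against 3 allow. Leaving out Tfam cKO replicate 1 or any 1 Control library took the Tfam call away, at adjusted p up to 0.107. Osteoblast genes, which define the labelled tissue, were abundant in all 6 libraries, with Col1a1 at 37653 ± 1451 in Tfam cKO and 80953 ± 11342 in Control (SD, n = 3 each). Reads of 8 skeletal muscle genes varied widely, summing to 1057 to 9046 in Tfam cKO and 986 to 6208 in Control.

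All 10 genes were expressed and tested, and none differed past the threshold between Tfam cKO and Control humeri. At a Benjamini-Hochberg adjusted limma p under 0.05, 0 were higher and 0 lower, where 12.4% of the 14438 genes tested were called (6.42% higher and 6.01% lower). With only 10 genes, a count of 0 is not read as a departure from that share. At an unadjusted p under 0.05 there were 2, Dll1 and Notch3, where 27.2% of all genes passed. edgeR's quasi-likelihood test on recovered reads called 0 of the 10, with 2 at an unadjusted p under 0.05, and DESeq2 called 0, with 1. The authors' deposited table also called 0 at q under 0.05. The median log2 fold change of the 10 was 0.17, against 0.01 for all genes tested, and 7 of the 10 estimates were above 0. In bulk RNA, fewer cells of a type and less RNA per cell cannot be told apart.

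**Figure D1:**
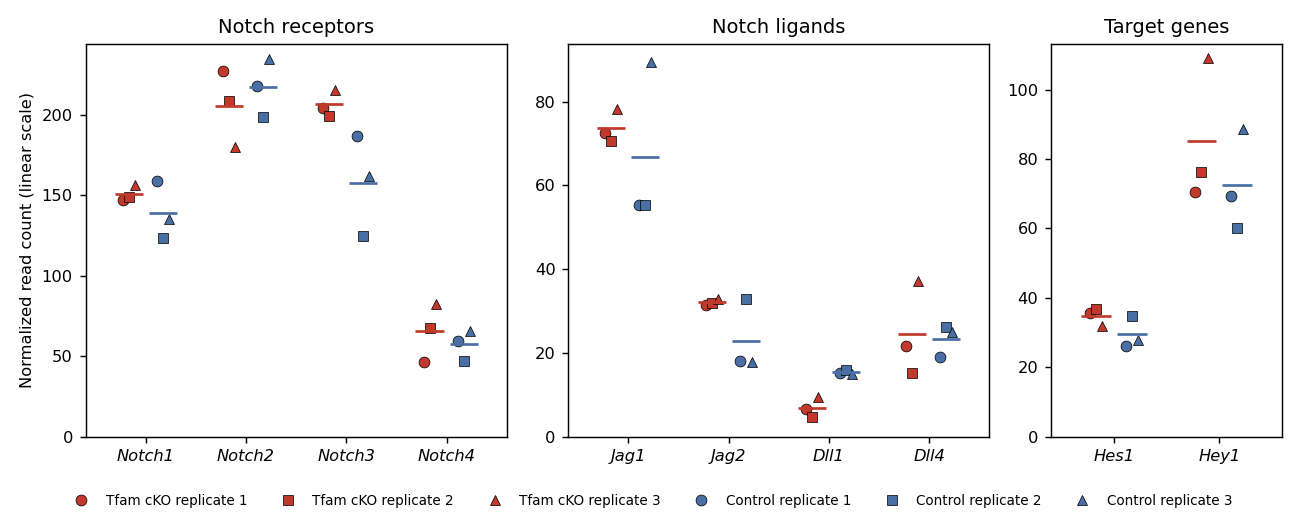
Normalized read count (linear scale) of each gene in each library, with Tfam cKO libraries in red and Control libraries in blue, a marker shape for each replicate number and a bar at the group mean. The groups overlap for 8 of the 10 genes; Dll1 is lower in all 3 Tfam cKO libraries (4.71 to 9.52) than in any Control library (14.9 to 15.9), and Notch3 is higher (199.6 to 216 against 125 to 187).

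Among the receptors, Notch3 stood nearest to the threshold. Notch3, the receptor of pericytes and vascular smooth muscle, had 205, 199.6 and 216 normalized reads in the Tfam cKO libraries and 187, 125 and 162 in the Control libraries. All 3 Tfam cKO values lay above all Control values, and the Control libraries were the more spread out. The estimated log2 fold change, 0.41 ± 0.14 (SE), had a 95% confidence interval of 0.10 to 0.71 and did not pass (limma adjusted p = 0.0803). It passed without Control replicate 1, the highest Control library (0.54, adjusted p = 0.0488), and after each library's trend with exon length was removed (0.46, adjusted p = 0.0369). Without Control replicate 2, the lowest library, it was 0.25 (adjusted p = 0.240).

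Notch3 and Dll1 were the 2 of 10 genes whose groups did not overlap, where 32.1% of all genes tested had no overlap. Of 11 pericyte and smooth muscle genes other than Notch3, 4 were higher, 3 lower and 4 not past the threshold. Of all genes tested, 6.42% were higher and 6.01% lower. The median log2 fold change of the 11 genes was 0.38, and none of them was at 0 in all libraries. Their summed level was 1462 to 2146 normalized reads in Tfam cKO and 1095 to 1301 in Control. The sum holds Des, desmin, which skeletal muscle also expresses, at 549, 279.6 and 67.7 normalized reads in the Tfam cKO libraries against 54.2, 269 and 109 in the Control libraries. In each group its order over the libraries was that of the summed skeletal muscle genes, whose part in the sum was not tested. The 4 higher genes were Acta2, smooth muscle actin (log2 fold change 1.95), the proteoglycan gene Cspg4 (1.62), Tagln (1.13) and Mcam (0.65). The 3 lower genes were Kcnj8 (-1.31), Abcc9 (-0.95) and Rgs5, a pericyte regulator of G proteins (-0.69). Pdgfrb, the growth factor receptor of pericytes, did not pass (0.38, limma adjusted p = 0.0526), though it did without Tfam cKO replicate 2 (adjusted p = 0.0460), with a pseudocount of 5 (0.0498), with the exon length trend removed (0.0246) and with a robust limma fit (0.0327). The part of these cells in the Notch3 values was not tested.

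Notch2, with Notch1 the receptor best known from the osteoblast lineage, had 227, 209 and 180 normalized reads in the Tfam cKO libraries against 218, 199 and 235 in the Control libraries. The groups overlapped throughout, and the log2 fold change of -0.08 had a 95% interval of -0.34 to 0.18 (limma adjusted p = 0.704), which spans 0.789-fold to 1.13-fold. Without Tfam cKO replicate 3 it was 0.01.

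Notch1, which acts in both endothelium and osteoblast precursors, had 147, 149 and 157 normalized reads in Tfam cKO against 159, 124 and 135 in Control. The single highest value was a Control library, and the interval of the log2 fold change of 0.12 ran from -0.14 to 0.39 (limma adjusted p = 0.569). It was 0.22 without Control replicate 1 and 0.041 without Control replicate 2. Notch4, the receptor most restricted to endothelium, had 46.5, 67.8 and 82.5 normalized reads in Tfam cKO against 59.3, 46.8 and 65.6 in Control. Its lowest and highest values were both Tfam cKO libraries, with a log2 fold change of 0.17 and an interval of -0.29 to 0.63 (limma adjusted p = 0.660). Without Tfam cKO replicate 3 it was -0.01.

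Dll1 had the largest estimated difference of the 10 genes, at few reads. This Delta-like ligand, known from the formation of somites, had 6.49, 4.71 and 9.52 normalized reads in the Tfam cKO libraries and 15.1, 15.9 and 14.9 in the Control libraries. Every Tfam cKO value was below every Control value, and the Control values were nearly equal. The estimate of -1.09 ± 0.34 (log2, SE) had a 95% interval of -1.83 to -0.35 and missed the threshold (limma adjusted p = 0.0556). In reads, there were 20 over the Tfam cKO libraries and 47 over the Control libraries, a depth-adjusted ratio of 0.445 with an exact counting interval of 0.250 to 0.766, which covers counting error only. Over the alternatives tried, the limma, edgeR and DESeq2 adjusted p and the q of the authors' deposited table ran from 0.0438 to 0.281 with the same sign, and it passed with a pseudocount of 5 (0.0438), with a robust limma fit (0.0465) and without Tfam cKO replicate 3 (0.0449).

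Dll1 and the summed genes of B lineage cells and of marrow stroma had lower values in the same group, Tfam cKO. So did 6.01% of all genes tested. The erythroid, neutrophil and megakaryocyte lists also had medians below 0 (log2 fold change -0.60, -0.49 and -0.74), with 0 genes higher. All 10 B lineage genes listed were lower, with a summed level of 134 to 243 normalized reads in Tfam cKO and 681 to 971 in Control, none of them at 0 in all libraries. Of 6 marrow stroma genes, 3 were lower, summing to 953 to 1283 in Tfam cKO and 2395 to 2917 in Control, led by the chemokine gene Cxcl12 (log2 fold change -1.75). Within Tfam cKO the B lineage and marrow stroma sums were highest in replicate 2, as were the erythroid, neutrophil and megakaryocyte sums. Dll1 had 6, 5 and 9 reads in Tfam cKO replicates 1, 2 and 3, too few to put these libraries in order. The part of these cells in the Dll1 values was not tested.

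Jag1, the Jagged ligand best studied in osteoblasts, had 72.5, 70.6 and 78.3 normalized reads in Tfam cKO against 55.2, 55.3 and 89.5 in Control. The Tfam cKO libraries lay between the Control libraries, and the log2 fold change of 0.18 had an interval of -0.23 to 0.59 (limma adjusted p = 0.587). It was 0.066 without Control replicate 1, 0.067 without Control replicate 2 and 0.41 without Control replicate 3. Jag2, its close relative, had 31.4, 32.0 and 32.8 normalized reads in Tfam cKO against 18.1, 32.8 and 17.9 in Control. The groups overlapped through Control replicate 2 alone, and the log2 fold change was 0.52 with an interval of -0.04 to 1.09 (limma adjusted p = 0.218). Without that library it was 0.80, still short of the threshold (adjusted p = 0.0658).

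Dll4, the ligand of sprouting and arterial endothelium, had 21.6, 15.1 and 37.0 normalized reads in Tfam cKO against 19.1, 26.2 and 24.9 in Control. Both the lowest and the highest library were Tfam cKO, and the estimate sat at -0.01 with an interval of -0.69 to 0.66 (limma adjusted p = 0.987), and its sign flipped under several alternatives. In the table Dll4 shares 217 exon bases with Gm14207 on the opposite strand, and since the authors' use of strand in counting is not given, reads of the pair could be mixed.

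The target genes, which stand downstream of receptor cleavage, did not differ past the threshold. Hes1, a repressor that delays differentiation, had 35.7, 36.7 and 31.7 normalized reads in the Tfam cKO libraries and 26.1, 34.7 and 27.9 in the Control libraries. The groups overlapped through Control replicate 2, and the log2 fold change of 0.23 had an interval of -0.21 to 0.68 (limma adjusted p = 0.510). Hes1 was at 0.15 without Control replicate 1 and 0.35 without Control replicate 2. Hey1, a repressor induced by Notch in endothelium and osteoblasts, had 70.3, 76.3 and 109 normalized reads in Tfam cKO against 69.3, 59.9 and 88.5 in Control. Replicate 3 was the highest library of each group, and the log2 fold change of 0.22 had an interval of -0.20 to 0.64 (limma adjusted p = 0.504). The Hey1 estimate was 0.031 without Tfam cKO replicate 3, 0.34 without Tfam cKO replicate 1, 0.093 without Control replicate 2 and 0.37 without Control replicate 3. For both targets the intervals reach from a small decrease (0.863-fold for Hes1, 0.873-fold for Hey1) to an increase of 1.60-fold for Hes1 and 1.55-fold for Hey1, and larger changes lie outside them.

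**Figure D2:**
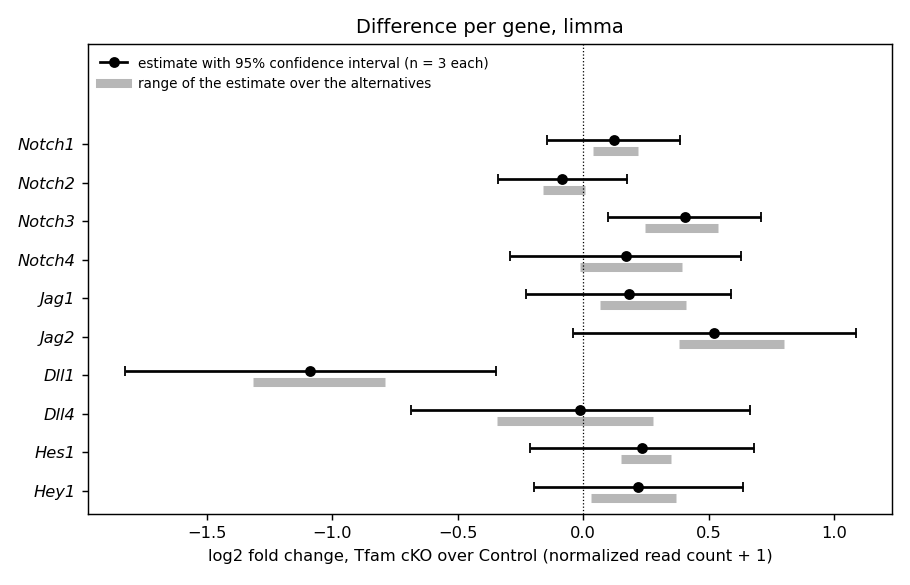
Log2 fold change of Tfam cKO over Control for each gene on the log2(normalized read count + 1) scale, with its 95% confidence interval from limma (black, n = 3 libraries each) and the range of the estimate over the alternatives (grey). The intervals of Dll1 (-1.83 to -0.35) and Notch3 (0.10 to 0.71) leave out 0, neither passing after adjustment over all genes, and those of the other 8 genes include 0.

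Tfam cKO replicate 3 was the highest of the 6 libraries for 5 of the 10 genes, namely Notch3, Notch4, Jag2, Dll4 and Hey1. For Jag2 this was a near tie, at 32.8 normalized reads against 32.78 in Control replicate 2. The same library was the lowest of the 6 for Notch2 and ranked 4 for Hes1 and Dll1. In the summed level of 22 endothelial genes it was the highest, at 2723 normalized reads. That sum was 2450 and 2488 in the other Tfam cKO libraries and 2370 to 2420 in the Control libraries. The same library also had the highest sums of the macrophage (1640), osteoclast (19219), adipocyte (891) and arterial endothelial (1221) lists. Of the 22 endothelial genes, 2 were higher (Emcn, log2 fold change 0.70, and Plvap, 0.43), 0 were lower and 20 did not pass, with a median of 0.10 and none at 0 in all libraries. Of all genes tested, 6.42% were higher and 6.01% lower. The Emcn call ended without Tfam cKO replicate 3 (limma adjusted p = 0.0606) or Control replicate 3 (0.0510). Pecam1 (0.24, limma adjusted p = 0.161), Cdh5 (0.07, adjusted p = 0.713, and -0.0034 without Tfam cKO replicate 3) and Kdr (-0.09, adjusted p = 0.668), which define endothelium, did not pass. Of 8 arterial genes, 2 were higher, the receptors Unc5b (1.06) and Nrp1 (0.47), and 0 lower, with a median of -0.33. Their summed level was 1019 to 1221 in Tfam cKO and 634 to 716 in Control. Unc5b alone made up 704 to 836 normalized reads of it in Tfam cKO and 332 to 411 in Control. The other arterial genes did not pass, with Gja4 at -0.69, Sox17 at -0.53, Bmx at -0.45, Gja5 at -0.35, Sema3g at -0.31 and Efnb2 at 0.41. The part of endothelial RNA in the values of Notch4, Dll4 and Hey1 was not tested.

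Per kb of exon, which adjusts levels for exon length, Hey1 stood first in both groups and Dll1 last. Coverage along the transcripts was not examined, so levels and shares per kb compare different genes only roughly. Hey1 averaged 38.6 ± 9.44 normalized reads per kb in Tfam cKO and 32.9 ± 6.61 in Control (SD, n = 3 each). In Tfam cKO it was followed by Notch3 (26.0 ± 1.05), Hes1 (23.9 ± 1.81), Notch2 (19.5 ± 2.27), Notch1 (15.9 ± 0.53), Jag1 (13.4 ± 0.73), Notch4 (9.94 ± 2.74), Jag2 (7.91 ± 0.18), Dll4 (7.12 ± 3.27) and Dll1 (2.01 ± 0.71). In Control the order was Hey1, Notch2 (20.7 ± 1.72), Hes1 (20.4 ± 3.11), Notch3 (19.9 ± 3.95), Notch1 (14.7 ± 1.88), Jag1 (12.1 ± 3.60), Notch4 (8.67 ± 1.45), Dll4 (6.78 ± 1.10), Jag2 (5.65 ± 2.11) and Dll1 (4.46 ± 0.16).

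The ranges of neighbours in these orders often overlapped. In Tfam cKO the pairs Notch3 and Hes1, Notch4 and Jag2, and Jag2 and Dll4 overlapped. In Control the neighbours from Notch2 down to Jag1 overlapped, as did those from Notch4 down to Dll1. Jag1 was the highest ligand per kb in both groups, above Notch4, the lowest receptor.

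**Figure D3:**
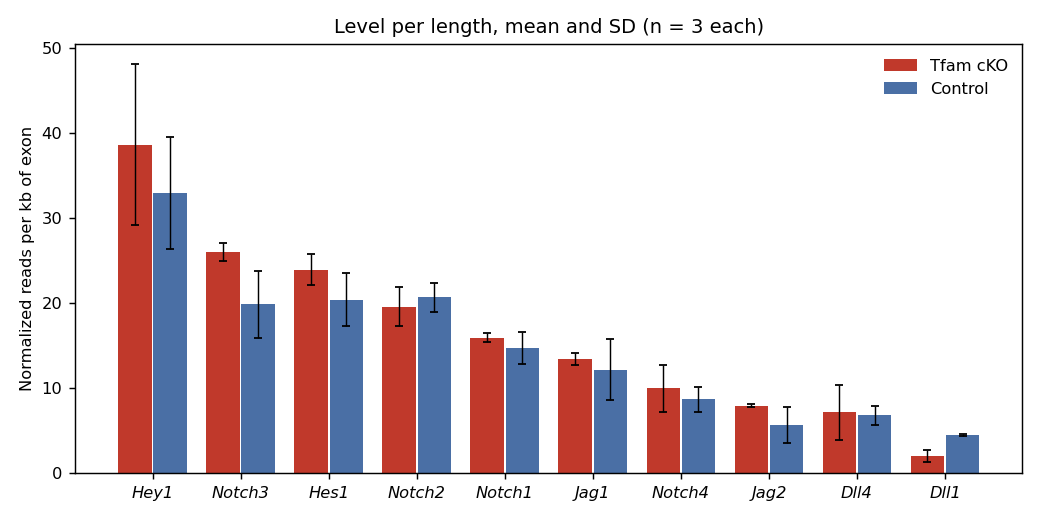
Mean level of each gene in normalized reads per kb of exon, with SD (n = 3 libraries each), Tfam cKO in red and Control in blue, ordered by the Tfam cKO mean. Hey1 is the highest (38.6 and 32.9) and Dll1 the lowest (2.01 and 4.46) in Tfam cKO and Control.

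Within the receptor family, Notch3 took 35.4% to 37.1% of the 4 receptors' reads per kb in Tfam cKO and 28.7% to 33.6% in Control. Notch2 took 23.4% to 30.9% in Tfam cKO and 29.7% to 34.5% in Control. Notch3 had the larger share of these 2 in all 3 Tfam cKO libraries, and in Control only in replicate 1. Notch1 held 22.1% to 22.5% in Tfam cKO and 21.3% to 23.9% in Control, the narrowest range of the 4 over all 6 libraries, and Notch4 held 10.1% to 17.1% in Tfam cKO and 12.8% to 14.8% in Control.

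Within the ligands, Jag1 took 39.8% to 48.5% of the 4 ligands' reads per kb in Tfam cKO and 33.1% to 50.5% in Control, the largest share in every library. Dll1 took 5.18% to 7.75% in Tfam cKO and 13.5% to 17.98% in Control, with no overlap. Jag2 held 22.6% to 29.8% in Tfam cKO and 13.7% to 26.6% in Control, and Dll4 held 16.5% to 29.9% in Tfam cKO and 22.3% to 25.0% in Control. These shares are descriptions without a test, and the shares within a family are bound to add up, so a lower share of 1 gene raises the others.

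**Figure D4:**
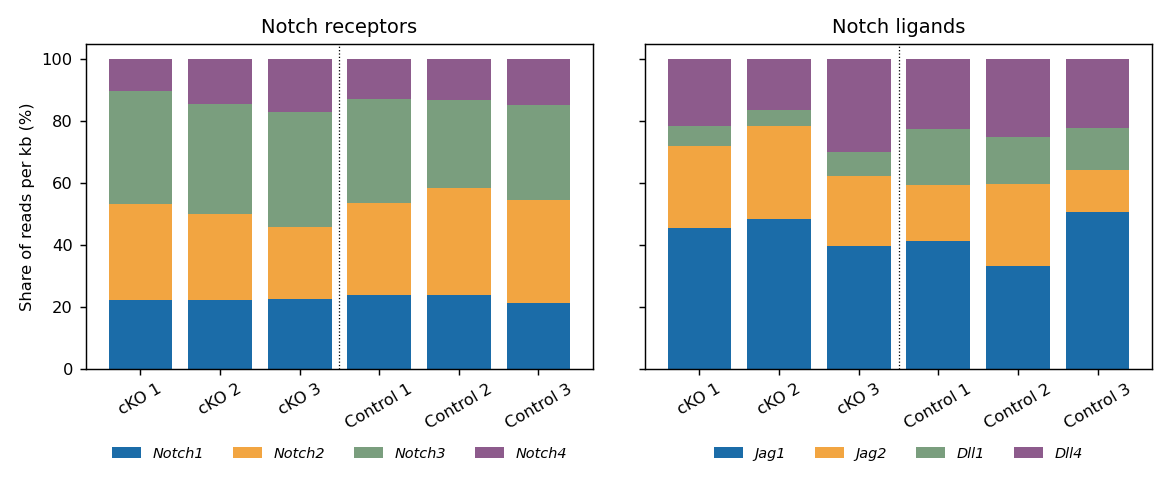
Share of each receptor in the reads per kb of the 4 Notch receptors (left) and of each ligand in those of the 4 ligands (right), in percent, for each Tfam cKO and Control library. Dll1 takes 5.18% to 7.75% in Tfam cKO libraries against 13.5% to 17.98% in Control libraries, and Notch3 takes 35.4% to 37.1% against 28.7% to 33.6%.

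Around the 10 genes, 51 other genes of the pathway were listed by role, of which 47 passed the filter on low values. Of the 47, 2 were higher, 1 was lower and 44 did not pass, and their median log2 fold change was 0.11, so 3 of 47 were called where 12.4% of all genes tested were. At an unadjusted limma p under 0.05 there were 10 of the 47, where 27.2% of all genes tested passed.

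Rbpj, the DNA-binding protein through which all 4 receptors act, was higher in Tfam cKO. It had 219.7, 205 and 199.97 normalized reads in the Tfam cKO libraries against 157, 146 and 143 in the Control libraries, without overlap. Rbpj rose by 0.48 ± 0.11 (log2, SE; interval 0.25 to 0.71; limma adjusted p = 0.0104). It passed under each of the 19 alternatives run, at an adjusted p (limma, edgeR or DESeq2) or a q in the authors' deposited table of at most 0.0462. The reference annotation also names pseudogenes of Rbpj, so its counts are uncertain to the extent that their reads were assigned to it.

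Poglut1, which adds glucose to the EGF repeats of Notch receptors, was higher at 76.8, 63.1 and 68.8 normalized reads in the Tfam cKO libraries against 30.1, 45.0 and 43.8 in the Control libraries. The groups did not overlap, and the difference was 0.81 ± 0.19 (log2, SE; limma adjusted p = 0.0142). That call ended without Tfam cKO replicate 1 (0.0582) or Control replicate 1 (0.0621), and with no filter on low values (0.133).

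Hes6, a relative of Hes1 that is known to counteract it, was lower at 32.5, 30.1 and 24.3 normalized reads in the Tfam cKO libraries against 55.2, 61.8 and 43.8 in the Control libraries. All 3 Tfam cKO values lay below the Control values, and the difference was -0.86 ± 0.20 (log2, SE; limma adjusted p = 0.0153). The call ended without Tfam cKO replicate 3 (0.0603), Control replicate 1 (0.0727) or Control replicate 2 (0.0670), with DESeq2 (0.0572) and with no filter (0.110).

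**Figure D5:**
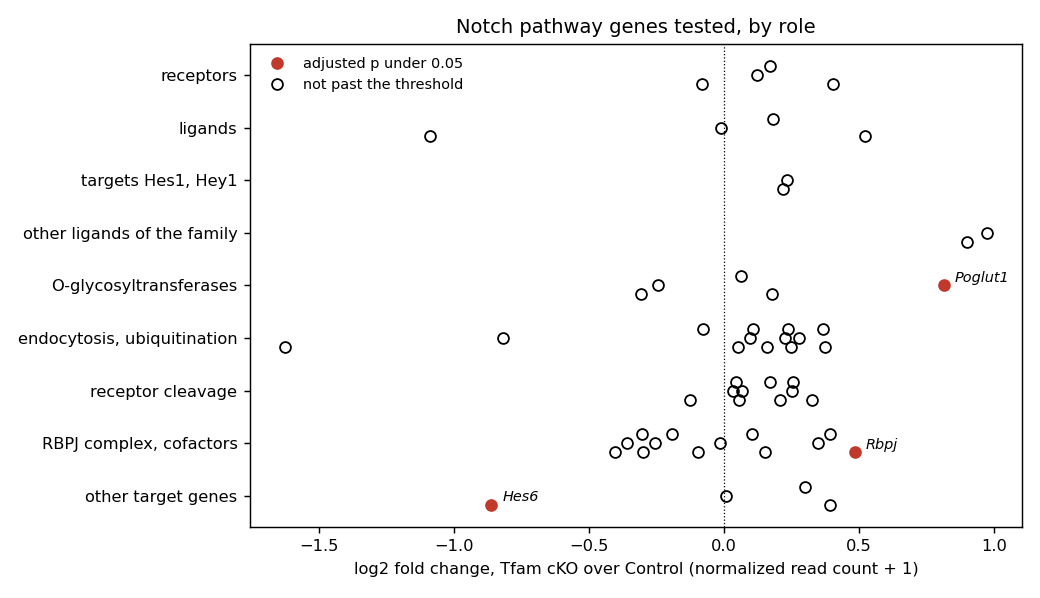
Log2 fold change of Tfam cKO over Control for the 10 genes and the 47 other pathway genes tested, 1 point per gene, by role; red points passed an adjusted p of 0.05. Rbpj (0.48) and Poglut1 (0.81) lie to the right and Hes6 (-0.86) to the left.

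Besides Rbpj, Poglut1 and Hes6, no pathway gene passed. Of 10 genes of receptor cleavage, among them the proteases Adam10 and Adam17 and the subunits of gamma-secretase, 0 passed, and their median log2 fold change was 0.12, with the smallest p for Ncstn, nicastrin (0.32, limma adjusted p = 0.0918). Of 13 genes of endocytosis and ubiquitination, such as the ligand-activating ubiquitin ligase Mib1 (0.25) and the receptor antagonist Numb (0.10), 0 passed, with a median of 0.16 and the smallest p for Dtx3l, a ubiquitin ligase of the Deltex family (-0.82, adjusted p = 0.0687), which passed without Tfam cKO replicate 2 (0.0316) or Control replicate 2 (0.0389) and with a robust limma fit (0.0361). Of 13 genes of the Rbpj complex and its cofactors, Rbpj alone passed, with a median of -0.10.

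Of 5 genes for O-glycosyltransferases, Poglut1 alone passed, and the fringe gene Lfng had a log2 fold change of 0.06. Of 6 genes listed as further targets, 4 were tested and Hes6 alone passed. Whether Notch controls Hes6 in these cells was not tested. Heyl at 0.30 (limma adjusted p = 0.280), Nrarp at 0.39 (adjusted p = 0.435) and Hey2 at 0.01 (adjusted p = 0.993) did not pass. Hes5 and Hes7 had at most 2.01 normalized reads in any library and were not tested.

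Of 4 further ligands of the family, Dlk1 and Dlk2 were tested and did not pass. Dlk1, a non-canonical ligand of fetal and regenerating tissues, had 252, 107 and 41.3 normalized reads in Tfam cKO against 32.1, 97.4 and 45.8 in Control (log2 fold change 0.98, limma adjusted p = 0.243), and passed without Tfam cKO replicate 3 (1.63, adjusted p = 0.0397). The summed skeletal muscle genes had 9046, 4111 and 1057 normalized reads in the same Tfam cKO libraries and 986, 6208 and 2513 in the same Control libraries, and their part in the Dlk1 values was not tested.

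Rbpj recognises the letters TGGGAA, often as GTGGGAA, in the promoters of Notch targets. RefSeq promoter sequences (build GRCm38.p6, the assembly behind mm10) were found for 8 of the 10 genes, and Hes1 and Hey1 had none in the table used. In the 250 bases before the start, on either strand, 0 of the 8 genes held TGGGAA, where 21.6% of all 32851 promoters did, and 0 held the longer GTGGGAA, which contains it, where 5.42% of all promoters did. Of the 5 genes with a promoter in the list of further targets, 3 held GTGGGAA, namely Hes5, Hes7 and Hey2. Shown here are Hes5, which holds the motif on both strands, then Rbpj and Hes6, the called genes of the Rbpj complex and further target lists. Dll1, the receptor or ligand gene with the largest estimate, is shown last. Each reads 5′ to 3′ on the gene's strand, with TGGGAA or its reverse complement TTCCCA in capitals.
Hes5 (chr4:154960673-154960922, plus strand): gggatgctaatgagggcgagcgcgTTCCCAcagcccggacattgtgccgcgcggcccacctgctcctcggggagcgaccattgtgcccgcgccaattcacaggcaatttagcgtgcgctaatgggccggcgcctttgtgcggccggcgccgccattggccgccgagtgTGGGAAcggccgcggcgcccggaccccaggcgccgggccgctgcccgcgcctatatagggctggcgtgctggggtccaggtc
Rbpj (chr5:53590096-53590345, plus strand): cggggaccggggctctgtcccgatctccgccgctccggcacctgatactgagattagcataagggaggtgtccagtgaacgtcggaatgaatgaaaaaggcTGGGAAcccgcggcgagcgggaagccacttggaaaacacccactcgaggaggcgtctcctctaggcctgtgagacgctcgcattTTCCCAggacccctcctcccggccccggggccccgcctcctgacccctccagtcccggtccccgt
Hes6 (chr1:91413223-91413472, minus strand): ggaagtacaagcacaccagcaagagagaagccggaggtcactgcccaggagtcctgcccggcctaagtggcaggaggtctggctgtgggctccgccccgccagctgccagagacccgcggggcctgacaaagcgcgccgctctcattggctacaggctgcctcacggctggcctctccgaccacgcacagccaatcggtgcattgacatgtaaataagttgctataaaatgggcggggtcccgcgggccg
Dll1 (chr17:15375824-15376073, minus strand): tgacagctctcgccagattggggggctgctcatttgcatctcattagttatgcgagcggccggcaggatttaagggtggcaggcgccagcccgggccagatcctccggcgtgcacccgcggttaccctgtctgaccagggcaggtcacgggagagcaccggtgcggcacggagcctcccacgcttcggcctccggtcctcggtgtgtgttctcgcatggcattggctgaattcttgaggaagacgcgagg
The Hes5 matches begin 226 and 82 bases before the start, and those of Rbpj 149 and 65 bases before the first of its 2 RefSeq starts, neither of which is the gene start in the deposited table. Hes6 and Dll1 held no match in these windows, and Poglut1, not shown, held 1 match. A match of letters is a description of the sequence, and binding was not measured.

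The 10 genes lie on 5 chromosomes. In mm10, Notch1 lies on chromosome 2 at 26457902 to 26503822 on the minus strand, with 34 exon blocks, and Jag1 (137081451 to 137116520) and Dll4 (119325784 to 119335666) lie on the same chromosome. Notch3 (32120893 to 32166852), Notch4 (34564295 to 34588543) and Dll1 (15367354 to 15375823) lie on chromosome 17. Notch2 (98013538 to 98150367) and Hey1 (8663359 to 8667038) lie on chromosome 3, Jag2 on chromosome 12 (112908590 to 112929495) and Hes1 on chromosome 16 (30065357 to 30067796). Exon length ran from 1451 bases for Hes1 to 10506 for Notch2, so a long receptor gathers more reads than a short target at the same level per kb.

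Some marker genes of other cells of the bone were called in the same libraries, where 12.4% of all genes tested were (6.42% higher and 6.01% lower). Cell numbers were not measured. Of 11 osteoblast genes, 4 were higher and 4 lower, led by Bglap, osteocalcin (log2 fold change -1.68). Col1a1 was at -1.09 and was called in 15 of 19 alternatives, with no call without Control replicate 1 (limma adjusted p = 0.0831). It was 0.022 after quantile normalization. That scaling gives equal ranks the same value in every library, so it can flatten differences of the most abundant genes. The transcription factor gene Runx2 did not pass (0.14, limma adjusted p = 0.438). Of 8 chondrocyte genes, 4 were higher and 1, Col11a1 (-0.78), lower, with a median of 1.44 and 7 of the 8 above 0. Their summed level was 2072 to 2836 normalized reads in Tfam cKO and 2873 to 3366 in Control. Col11a1 alone of these genes had an estimate below 0, and its part in the sum was not tested. Of 7 macrophage genes tested, 5 were higher and 1 lower, led by C1qb (0.87), and of 8 osteoclast genes 1 was higher, the gelatinase gene Mmp9 (0.70, and 0.13 with no call after quantile normalization).

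Of 8 neutrophil genes 3 were lower (Ngp, -0.53), of 6 erythroid genes 3 (Klf1, -0.88), of 6 megakaryocyte genes 2 (median of the list -0.74, summed level 358 to 631 in Tfam cKO and 527 to 947 in Control) and of the B lineage genes all 10 (Rag1, -4.19), with 0 higher in these 4 lists. The Ngp call ended without Tfam cKO replicate 1 or 3 or Control replicate 1 or 2 (limma adjusted p up to 0.152). Of 5 adipocyte genes 1 was higher and 2 lower (Fabp4, -0.79), and of 4 T lineage genes 1 was higher (Bcl11b, 2.02, at 4.23 to 7.57 normalized reads in Tfam cKO and 0 to 0.99 in Control, with no call without any 1 Tfam cKO library or Control replicate 1, at limma adjusted p up to 0.109). Bcl11b also had no call with a pseudocount of 0.1 (limma adjusted p = 0.0675), no filter (0.0940), the replicate block (0.0595) or DESeq2 (adjusted p = 0.183). In the lists of skeletal muscle (Myh8, 1.02, limma adjusted p = 0.393) and epidermis (Krt10, -0.37, adjusted p = 0.701), 0 passed among 6 and 2 genes tested.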

How the data were processed

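RNA libraries from humeral bone were poly(A)-selected and directional (NEBNext Ultra II), from 50 ng of RNA, per the labels' protocols. TopHat, Cufflinks and the mm10 build are named, with neither version nor role, in the submitters' processing notes. No source used here states the counting program, whether it used strand, or the authors' test. Per library the authors deposited a signal: the read count of each gene over a size factor of that library, judged from the values. Multiplied back, 100% of values in each library came out as whole reads within 0.001, and those reads entered the count tests. The check is weaker for Control replicates 1 and 3, whose size factor is close to 1. For each gene the authors deposited both a p-value and q-value, and the q-value was used only to count their calls.

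The main test was limma 3.58.1 (R 4.3.3) on log2(normalized read count + 1) of the 6 libraries together, with a genotype term alone and a trend of variance on mean, for the 14438 genes with a mean of at least 1. Benjamini-Hochberg adjustment ran over all of them, with calls at 0.05. The scale understates changes of genes with few reads. edgeR 4.0.16 and DESeq2 1.42.0 were run on the recovered reads as alternatives, with pseudocounts of 0.1 and 5, other filters and scalings, removal of each library's trend with exon length, the replicate number as a block, a robust fit and leaving out each library. The script was tested on simulated data.

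The 10 genes, the pathway and marker lists and the tests were chosen with earlier results of these data known. The text names Tfam, the 10 genes, each called pathway gene, the gene with the smallest p of each list, and 8 fixed vascular and osteoblast genes. The values of 1 gene that this rule names are not reported here. Genes named beyond these were chosen after their values were seen. The rule also named genes of like pattern for each called member, of which there were 0. The promoter sequences are from RefSeq, and their starts matched the deposited gene start for 8 of 11 genes compared. Each group has 3 libraries. An interval made from reads covers counting error only, because reads that PCR copied from 1 molecule are not independent.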

Additional observations from a re-analysis of the deposited data

How the results depend on the processing

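Among the 10 Notch genes, the number higher in Tfam cKO was 1 after removal of the exon length trend (Notch3) and 0 to 1 with any 1 library left out. The number lower was 1 with a pseudocount of 5 or a robust limma fit (Dll1 both times) and 0 to 1 with any 1 library left out. With every other alternative both counts were 0. Of 190 gene-by-alternative estimates for the 10 genes, 12 changed sign, all of Notch2, Notch4 or Dll4, whose intervals include 0. The Dll4 estimate was 4.6e-05 with a pseudocount of 5, 0.0047 with the exon length trend removed, 0.0619 with edgeR and TMM, 0.0509 with edgeR and RLE factors, 0.0578 with DESeq2, 0.0685 from the group means in the authors' deposited table, and -0.34 to 0.28 with 1 library left out. Leaving out 1 library gave -0.16 to 0.0088 for Notch2, -0.013 to 0.39 for Notch4, -0.0034 to 0.16 for Cdh5 and -0.63 to 0.10 for Krt10. Col1a1 was 0.022 after quantile normalization, which can flatten differences of the most abundant genes. Of the other pathway genes, those higher numbered 1 with no filter and 1 to 3 with 1 library left out, and those lower 2 with the robust fit, 0 with DESeq2 and 0 to 2 with 1 library left out. Over all genes, 199 were higher and 104 lower with no filter, 604 and 536 with DESeq2, and 545 to 834 and 346 to 973 with 1 library left out. Tfam stayed at -0.81 with no filter and -0.80 with DESeq2, where its call ended (adjusted p: limma 0.207 and DESeq2 0.0564), and ran from -0.94 to -0.57 with 1 library left out. Same-numbered libraries did not deviate together (r = -0.23, 0.01 and 0.09 over genes), and not every library correlated best with its own number. With the replicate block 1290 genes were called in place of 1795, and 0 of the 10; the calls of Col1a1 and Bcl11b ended (adjusted p = 0.0540 and 0.0595 with limma). The exon length trend gave a Tfam cKO minus Control difference of -0.05 (log2) at 8000 bases and 0.09 at 1000. Dll1 had the fewest reads of the 10 genes, 5 to 9 in each Tfam cKO library. The cause of these changes was not tested.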
